A study of Mus musculus with 7 samples.

Results

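Aminoacyl-tRNA synthetases join each amino acid to its transfer RNA. Their messenger RNA was followed here in fibroblasts of mouse mammary tumors and in stromal cells of the normal mammary fat pad. The members are 36 genes taken by symbol from a count table of 24421 symbols: 20 genes of the cytosolic enzymes and 16 genes of the mitochondrial enzymes. Genes entered by name, and the rule itself holds no measured value, but the members were chosen with earlier results of these data known.

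The series measured messenger RNA in 7 libraries that read the 3' ends of polyadenylated transcripts. The pCAF group held 3 libraries of cancer-associated fibroblasts from tumors that formed after 100000 4T1-luc cells, a luciferase-carrying mammary carcinoma line, had been placed in the mammary fat pad of BALB/c females. These tumors were taken at a size of 1 cm, and the sort excluded cells with Ter119, CD45 or EpCAM and selected cells with podoplanin (PDPN). The NMF group held 4 libraries from the fat pad of untreated BALB/c mice, sorted with the same negative markers and no PDPN step, so it is a mixed stromal population. Age was given as 8 weeks for pCAF and 12 weeks for NMF, while the design text called the mice age matched. The selection field of pCAF replicate 3 read PDPN negative, against its title and source. Tumor and fat pad were digested with different collagenases, which cannot be told apart from the group. No animals were named behind the replicates, so each p-value speaks only of the spread among the 7 libraries.

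The cytosol and the mitochondrion each have their own translation machinery, and most amino acids have a separate nuclear gene for the enzyme of each compartment. Gars and Kars are exceptions whose genes encode both forms. Several cytosolic enzymes (Dars, Eprs, Iars, Kars, Lars, Mars, Qars and Rars) sit with the scaffold proteins Aimp1, Aimp2 and Eef1e1 in the multisynthetase complex. Many cytosolic synthetase genes are known targets of ATF4, the transcription factor of the amino acid stress response, and Wars is known to be induced by interferon gamma.

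Cytosolic synthetase transcripts were higher in pCAF for 9 of the 19 genes that could be tested, and none was lower. Gars, the glycyl-tRNA synthetase, had the highest fold change at 4.36, and the other 8 (Cars, Farsb, Hars, Iars, Nars, Rars, Tars and Vars) lay between 1.78-fold and 2.62-fold. None of the 11 tested mitochondrial genes passed the test in either direction. Over the 30 tested members, edgeR's quasi-likelihood test (Benjamini-Hochberg adjusted across the 10535 tested genes) called 9 higher and 0 lower at an adjusted p under 0.05. Of all tested genes, 14.3% were called higher and 14.2% lower. At an unadjusted p under 0.05 stood 13 cytosolic genes, Wars among them, and 1 mitochondrial gene, where 40.1% of all tested genes stood. DESeq2 called 2 members lower, Tars2 and Wars, where it called 17.9% of all genes lower. In bulk libraries of this kind fewer cells of a type and less RNA per cell cannot be told apart.

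**Figure D1:**
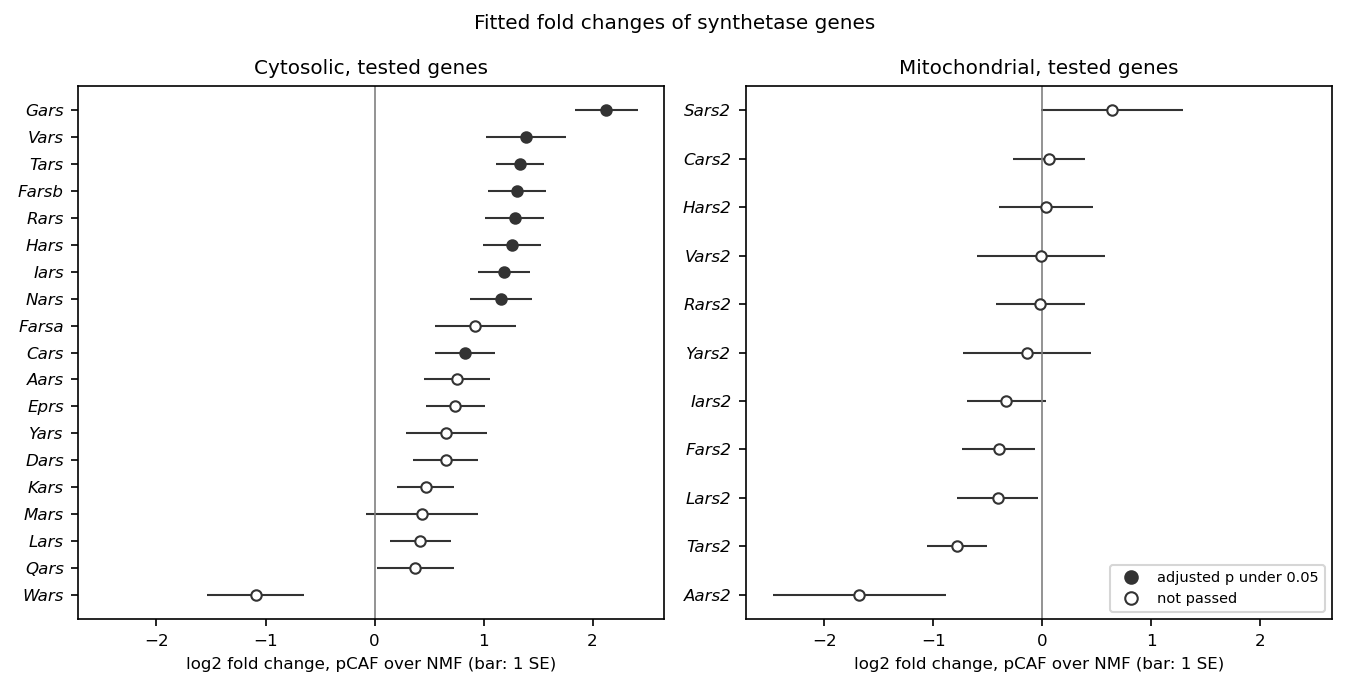
Log2 fold change of each tested synthetase gene, pCAF over NMF, as fitted by edgeR, with bars of 1 SE; filled points have an adjusted p under 0.05. All 9 filled points are cytosolic, from Cars at 0.83 to Gars at 2.12, and the mitochondrial genes spread from -1.68 (Aars2) to 0.64 (Sars2).

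Across the 19 tested cytosolic genes, the median log2 fold change was 0.83, with a range from -1.09 (Wars) to 2.12 (Gars), and 18 were above 0. Across the 11 tested mitochondrial genes the median was -0.14, with a range from -1.68 (Aars2) to 0.64 (Sars2), and 3 were above 0. For all 10535 tested genes the median was -0.02 and 49.2% were above 0, with quartiles at -0.77 and 0.69. The mitochondrial genes were measured less precisely: their total counts over the 7 libraries had a median of 415, against 1230 for the cytosolic genes, and their median SE was 0.41 against 0.28. CPM values (a gene's counts scaled to the TMM-adjusted total of its library) summed over the cytosolic genes were 2467, 2091 and 2007 in the pCAF libraries and 1133, 975, 1027 and 1362 in the NMF libraries. Without Gars, the sums still ran from 1647 to 1918 in pCAF and from 907 to 1229 in NMF. The mitochondrial sums overlapped, at 294, 238 and 203 CPM in pCAF and 266, 243, 267 and 344 CPM in NMF.

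**Figure D2:**
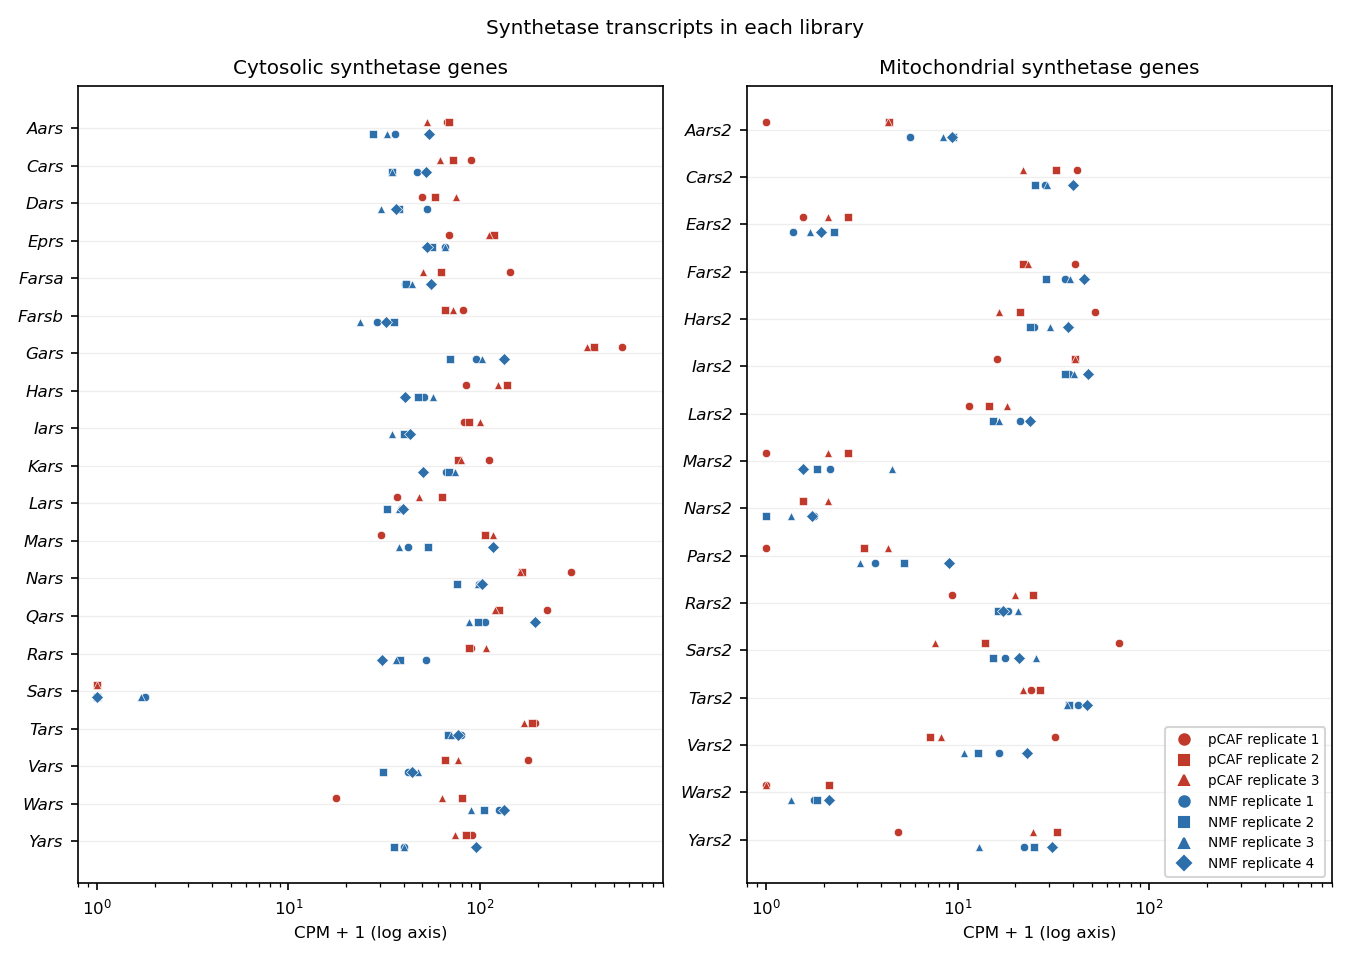
CPM + 1 (log axis) of all 36 synthetase genes in each library, cytosolic on the left and mitochondrial on the right; red symbols are pCAF and blue symbols NMF, with 1 symbol shape per replicate number. The red points of Gars (360 to 549 CPM) stand clear of its blue points (68.8 to 133 CPM), while Sars, Ears2, Mars2, Nars2, Pars2 and Wars2 lie near the left edge.

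Within each group 1 library differed from the rest, pCAF replicate 1 and NMF replicate 4. Total counts were 1885039 to 2714492 in 6 libraries and 4990070 in NMF replicate 4. Genes with any count numbered 11090 in pCAF replicate 1 and 13222 to 14353 elsewhere. Chi-square per degree of freedom on the counts was 3.22 for pCAF replicates 2 and 3, and 39.98 and 42.2 for each of them with replicate 1. For NMF replicates 1 to 3 it was 6.47 to 10.1, and 35.6 to 39.8 for each of them with replicate 4. In pCAF replicate 1, 4 of 19 cytosolic genes (Farsa and Vars above, Mars and Wars below) and 7 of 11 mitochondrial genes lay at least 2-fold from the mean of the other pCAF libraries on the log2(CPM + 1) scale, as did 43.4% of all tested genes. In NMF replicate 4 these were 2 cytosolic genes (Mars and Yars, both above) and 0 mitochondrial genes, against 18.4% of all tested genes. Without both libraries, a comparison chosen after the data were seen, 15 cytosolic synthetases were higher and 1 was lower (Wars), beside 3 mitochondrial genes lower (Fars2, Sars2 and Tars2), where 25.9% of all tested genes were called higher and 26.9% lower.

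Sorted content also differed. Of all tested genes 14.3% were called higher in pCAF and 14.2% lower. Summed fibroblast markers ran from 73448 to 83130 CPM in pCAF and from 26462 to 46322 CPM in NMF, most of it from Col1a1, Col1a2 and Col3a1. Of these 11 markers 5 were higher (Col1a1, Col1a2, Col3a1, Lum and Pdpn) and 1 was lower (Dpt, log2 fold change -1.51, adjusted p 0.0254). Pdpn (3.47) encodes the marker on which only pCAF was sorted, so its call is not independent of the sort. Dcn lay below NMF in every pCAF library (-0.85, adjusted p 0.0736), and Pdgfra was at 0.05 (adjusted p 0.916). All 12 blood endothelial markers were lower in pCAF (127 to 281 CPM in sum against 2290 to 3630), as were all 6 tested of 8 adipocyte markers (1.66 to 66.5 against 1764 to 15455, with Plin1, Cidec and Lep at 0 in pCAF) and all 5 Schwann cell markers (4.99 to 16.3 against 259 to 1010, with Sox10 at 0 in pCAF). Lymphatic endothelial markers were split: of 3 tested, Mmrn1 was higher (log2 fold change 3.59, adjusted p 0.00842 in edgeR's test) and Flt4 lower (-1.75, adjusted p 0.0137). Lyve1 was at 1.64 and did not pass (adjusted p 0.335). The 5 listed summed to 23.3 to 46.2 CPM in pCAF and 30.6 to 62.1 CPM in NMF, with Ccl21a at 0 in pCAF. Leukocyte markers summed to 81.5 to 209 CPM in pCAF and 34.0 to 259 CPM in NMF, with 3 of 7 tested lower and Ptprc and Cd79a at 0 in pCAF. Epithelial and tumor cell markers summed to 110.9 to 275 CPM in pCAF and 192 to 613 CPM in NMF, with 4 of 9 tested lower and Krt5 at 0 in pCAF. Of 8 pericyte and smooth muscle markers 3 were lower and 1 was higher (261 to 436 CPM in sum against 375 to 570.0). Of 11 tested proliferation genes 7 were higher in pCAF (367 to 719 CPM in sum against 78.6 to 225). Untested Cdk1 was at 0 in pCAF. The untested genes at 0 in pCAF had few counts over the NMF libraries: Ccl21a 0, Cdk1 2, Lep 9, Plin1 11, Cd79a 11 and Krt5 31. How far the differences in sorted content entered the synthetase values was not tested.

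Gars was measured at 549, 394 and 360 CPM in pCAF replicates 1 to 3 and at 94.2, 68.8, 102 and 133 CPM in NMF replicates 1 to 4. Every pCAF library lay more than 200 CPM above every NMF library. The fitted log2 fold change of 2.12 (SE 0.29) had an adjusted p of 5.74e-04 in edgeR's test. The gene lies on mm10 chromosome 6, from 55038007 to 55079500 on the plus strand. Tars, the threonyl-tRNA synthetase (chromosome 15, 11382301 to 11399665, minus strand), stood at 193, 186 and 168 CPM in pCAF and at 78.4, 66.7, 69.3 and 75.3 CPM in NMF. The libraries within each group were close together, and the log2 fold change of 1.33 had the smallest SE of any member, 0.22 (adjusted p 0.00158 in edgeR's test).

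The promoters of 5 cytosolic synthetases held the core of the C/EBP-ATF element, TGATGNAA, the kind of site that ATF4 binds with a C/EBP partner. Promoters, 250 bases before to 50 bases after the start of the gene, came from RefSeq on GRCm38.p6, where 27 of the 36 members matched (13 cytosolic and 14 mitochondrial). The motif was searched on both strands. It was present for Aars, Gars, Iars, Tars and Yars, for none of the 14 mitochondrial genes, and for 3.97% of all 32851 promoters. The narrower form TGATGCAA, contained in the core, was present for Aars, Iars, Tars and Yars and for 0.895% of all promoters. Gars, Iars and Tars passed the test for expression and Aars and Yars did not. Farsb passed as well, and its promoter held no match. The other called genes (Cars, Hars, Nars, Rars and Vars) had no promoter entry. Whether the element goes with the calls was not tested. The promoters of Gars, Tars and Iars are printed whole, and those of Yars and Aars as the match with 25 bases on each side. Capitals mark the match, which reads as the reverse complement of the motif in all but Yars. The capitals begin 30 bases before the start in Gars (chr6:55037751-55038050, plus strand), 15 bases before it in Tars (chr15:11399609-11399908, minus strand) and 8 bases after it in Iars (chr13:49681880-49682179, plus strand). They begin 4 bases after the start in Yars (promoter chr4:129189653-129189952, plus strand), and in Aars (promoter chr8:111033592-111033891, plus strand) 112 bases before and 10 bases after it. These starts are those of RefSeq. GENCODE M21, used here for gene positions, begins Yars at 129189760, inside its promoter window. It begins Aars at 111033144, before its window, so both Aars matches lie within that gene span.
Gars: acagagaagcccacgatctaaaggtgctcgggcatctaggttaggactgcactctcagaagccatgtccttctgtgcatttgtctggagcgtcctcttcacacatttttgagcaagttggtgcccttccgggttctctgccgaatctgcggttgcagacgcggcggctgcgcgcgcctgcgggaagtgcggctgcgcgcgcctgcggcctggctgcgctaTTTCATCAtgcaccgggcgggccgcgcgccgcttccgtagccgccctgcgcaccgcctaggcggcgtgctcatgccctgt
Tars: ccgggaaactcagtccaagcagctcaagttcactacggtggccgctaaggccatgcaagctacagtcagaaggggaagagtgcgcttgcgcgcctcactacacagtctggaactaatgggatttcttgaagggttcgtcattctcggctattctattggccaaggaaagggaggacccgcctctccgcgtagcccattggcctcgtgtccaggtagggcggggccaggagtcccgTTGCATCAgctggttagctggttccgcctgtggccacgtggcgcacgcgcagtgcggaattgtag
Iars: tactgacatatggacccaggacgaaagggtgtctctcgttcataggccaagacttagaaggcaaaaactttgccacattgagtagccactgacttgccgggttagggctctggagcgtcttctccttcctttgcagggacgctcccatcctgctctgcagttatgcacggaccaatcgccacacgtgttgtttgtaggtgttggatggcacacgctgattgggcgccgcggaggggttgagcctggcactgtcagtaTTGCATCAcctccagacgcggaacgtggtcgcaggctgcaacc
Yars: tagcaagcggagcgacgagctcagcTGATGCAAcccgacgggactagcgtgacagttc
Aars, upstream match: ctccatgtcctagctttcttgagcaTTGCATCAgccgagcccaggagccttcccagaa
Aars, downstream match: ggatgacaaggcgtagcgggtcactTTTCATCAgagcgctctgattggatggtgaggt
A match is a description of the letters and not of binding.

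Farsb, the beta subunit of phenylalanyl-tRNA synthetase, was measured at 80.4, 64.8 and 71.5 CPM in pCAF and at 27.8, 34.6, 22.5 and 31.4 CPM in NMF. The groups were well separated (log2 fold change 1.31, SE 0.27, adjusted p 0.00477 in edgeR's test). The end of Farsb overlaps Sgpp2 on the other strand, and whether strand was used in counting was not given in the sources used here, so reads of this pair cannot be told apart. Farsa, the alpha subunit that the enzyme needs in equal number, did not pass at a log2 fold change of 0.92 (SE 0.37, adjusted p 0.0882). Its values were 143, 61.4 and 49.3 CPM in pCAF and 39.8, 40.1, 43.3 and 54.7 CPM in NMF. pCAF replicate 1 was the high library, and without it the Farsa log2 fold change was 0.31 (adjusted p 0.343); without pCAF replicate 3 it was 1.20 (adjusted p 0.0457).

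Hars, the histidyl-tRNA synthetase, stood at 83.2, 138 and 124 CPM in pCAF and at 50.2, 46.4, 55.97 and 39.8 CPM in NMF. Nars, the asparaginyl-tRNA synthetase, stood at 296, 164 and 161 CPM in pCAF and at 97.7, 74.7, 96.8 and 101 CPM in NMF. Neither gene overlapped between the groups, although pCAF replicate 1 was the lowest pCAF library for Hars and the highest for Nars. Their log2 fold changes were 1.26 (SE 0.27, adjusted p 0.00588) and 1.16 (SE 0.28, adjusted p 0.0125). Both lie on chromosome 18, where Hars (36766528 to 36783205, minus strand) overlaps the start of its mitochondrial counterpart Hars2 (36783008 to 36792562, plus strand) head to head.

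Vars, the valyl-tRNA synthetase, was measured at 176, 64.2 and 75.4 CPM in pCAF and at 40.9, 29.98, 46.5 and 43.3 CPM in NMF. Every pCAF library was above every NMF library, with pCAF replicate 1 far above the rest, and the log2 fold change was 1.39 (SE 0.37, adjusted p 0.0183). It was 0.79 without pCAF replicate 1 (adjusted p 0.0285), and the adjusted p was 0.0581 without NMF replicate 1 and 0.0637 without NMF replicate 2. Cars, the cysteinyl-tRNA synthetase, stood at 88.2, 70.97 and 60.4 CPM in pCAF and at 45.6, 33.8, 33.8 and 51.2 CPM in NMF. Its groups did not overlap either, but the margin of the call was small: the log2 fold change was 0.83 (SE 0.28, adjusted p 0.0477). The call was lost in 11 of 17 alternative analyses, among them those that left out any 1 pCAF library (adjusted p 0.0632, 0.103 and 0.0635) and those that left out NMF replicate 1, 2 or 3 (0.0936, 0.133 and 0.133).

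Of the 8 enzymes of the multisynthetase complex, 2 passed the test, Iars and Rars, beside 14.3% of all tested genes called higher. Iars, the isoleucyl-tRNA synthetase, stood at 80.97, 86.2 and 99.2 CPM in pCAF and at 41.3, 38.8, 33.8 and 42.0 CPM in NMF, with a log2 fold change of 1.19 (SE 0.24, adjusted p 0.00473). Rars, the arginyl-tRNA synthetase, stood at 88.2, 86.2 and 106 CPM in pCAF and at 51.4, 37.2, 35.2 and 29.7 CPM in NMF, with a log2 fold change of 1.29 (SE 0.27, adjusted p 0.00578). For both genes all 3 pCAF libraries lay well above the NMF range. The last 300 bp of Iars have a near-identical copy in Gm4849, a symbol absent from the count table. How reads that match both were counted was not given in the sources used here.

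The other 6 complex enzymes had log2 fold changes above 0 and did not pass in edgeR's test. Eprs, which carries glutamyl- and prolyl-tRNA synthetase in a single protein, stood at 67.7, 117 and 110.9 CPM in pCAF and at 64.5, 54.9, 64.8 and 51.5 CPM in NMF, without overlap (log2 fold change 0.74, adjusted p 0.0621), and it passed in DESeq2 (0.73, adjusted p 0.0354). Without pCAF replicate 1, its lowest pCAF library, the log2 fold change was 0.95 (adjusted p 0.00535). Kars, the lysyl-tRNA synthetase, also did not overlap, at 110, 76.0 and 78.7 CPM against 65.7, 67.6, 72.9 and 49.5 CPM (log2 fold change 0.47, adjusted p 0.208). Dars, Lars and Qars overlapped between the groups, at log2 fold changes of 0.65, 0.42 and 0.37 (adjusted p 0.125, 0.300 and 0.468). Dars passed without pCAF replicate 1 (adjusted p 0.0452).

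Mars, the methionyl-tRNA synthetase, had the largest SE of the complex enzymes. Its values were 29.4, 105 and 116 CPM in pCAF and 40.9, 52.4, 37.0 and 115 CPM in NMF. pCAF replicate 1 lay below all NMF libraries and NMF replicate 4 lay with the other pCAF libraries, and the log2 fold change was 0.44 (SE 0.51, adjusted p 0.569). Without these 2 libraries it was 1.34 (adjusted p 1.81e-05). The end of Mars overlaps Ddit3 on the other strand, a stress-response transcription factor gene measured at a log2 fold change of -0.08. With both libraries left out, 6 complex enzymes passed, Iars and Rars among them, where 25.9% of all genes were called higher and 26.9% lower. The median log2 fold change was 0.81 against 0.56 with all libraries. Without pCAF replicate 1 alone 4 complex enzymes passed, where 18.3% of all genes were called higher and 19.8% lower.

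The 3 scaffold proteins of the complex did not pass in edgeR's test with all libraries. Aimp1 was at 171 ± 17.9 CPM (SD, n = 3) in pCAF and 119 ± 29.3 CPM (SD, n = 4) in NMF, without overlap (log2 fold change 0.52, adjusted p 0.182). Aimp2 was at 0.39 on the log2 scale (adjusted p 0.398) and Eef1e1, which binds the methionyl enzyme, at 1.75 (adjusted p 0.052), both with overlap. Aimp2 and Eef1e1 passed without pCAF replicate 1. With all libraries Eef1e1 also passed in DESeq2 (adjusted p 0.0223), limma-voom (0.0297), with no filter (0.0396) and in thinned libraries (0.0474), and it passed without NMF replicate 2 (0.0471). Of the 11 tested cytosolic synthetases outside the complex, 7 were higher (Cars, Farsb, Gars, Hars, Nars, Tars and Vars), with a median log2 fold change of 1.16. By catalytic fold, 4 of 9 tested cytosolic class I enzymes and 5 of 9 class II enzymes were higher, with medians of 0.66 and 1.16; Eprs, which holds both classes, was in neither. Of all tested genes 14.3% were called higher, and the difference between these subsets was not tested.

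Aars and Yars, both outside the complex, did not pass in edgeR's test of the groups with all libraries. Aars, the alanyl-tRNA synthetase, stood at 66.5, 68.2 and 52.1 CPM in pCAF and at 35.1, 26.6, 31.7 and 53.0 CPM in NMF (log2 fold change 0.76, adjusted p 0.0879). Yars, the tyrosyl-tRNA synthetase, stood at 89.8, 83.9 and 72.6 CPM in pCAF and at 39.0, 34.6, 39.1 and 94.1 CPM in NMF (log2 fold change 0.66, adjusted p 0.218). In both genes the overlap came from NMF replicate 4. Without it the log2 fold changes were 1.02 for Aars (adjusted p 0.0224) and 1.15 for Yars (adjusted p 0.00849). The ends of both genes overlap another gene, Exosc6 on the same strand for Aars and C77080 on the other strand for Yars.

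Wars, the tryptophanyl-tRNA synthetase, was the only tested cytosolic member with a negative log2 fold change. It stood at 16.6, 79.4 and 62.1 CPM in pCAF and at 125, 103, 89.1 and 132 CPM in NMF, on chromosome 12 from 108860030 to 108894174 (minus strand). Every pCAF library lay below every NMF library, pCAF replicate 1 furthest. The log2 fold change was -1.09 (SE 0.45), 2.13-fold higher in NMF, and did not pass in edgeR's test (adjusted p 0.0932), while DESeq2 gave -1.12 (adjusted p 0.0469). Without pCAF replicate 1 and NMF replicate 4 it was -0.59 (adjusted p 0.0197). Of 25 tested interferon-inducible genes 1 was higher, Iigp1, an immunity-related GTPase (log2 fold change 2.14), and 2 were lower, Irf9, a subunit of the interferon-stimulated transcription factor (-1.32), and Psmb9, an immunoproteasome subunit (-1.08, a call lost without pCAF replicate 2 or 3 or NMF replicate 1, 2 or 3). Their median was -0.07, and of all tested genes 14.3% were called higher and 14.2% lower. Among cytosolic and mitochondrial members with a promoter, an interferon response element (GAAA, any 2 bases, GAAA, on both strands) was found in Qars and in 3.44% of all promoters; the interferon gamma activated site TTCNNNGAA was found in Aars, Kars and Nars2 and in 8.3% of all promoters. Wars had no entry in the promoter table.

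**Figure D3:**
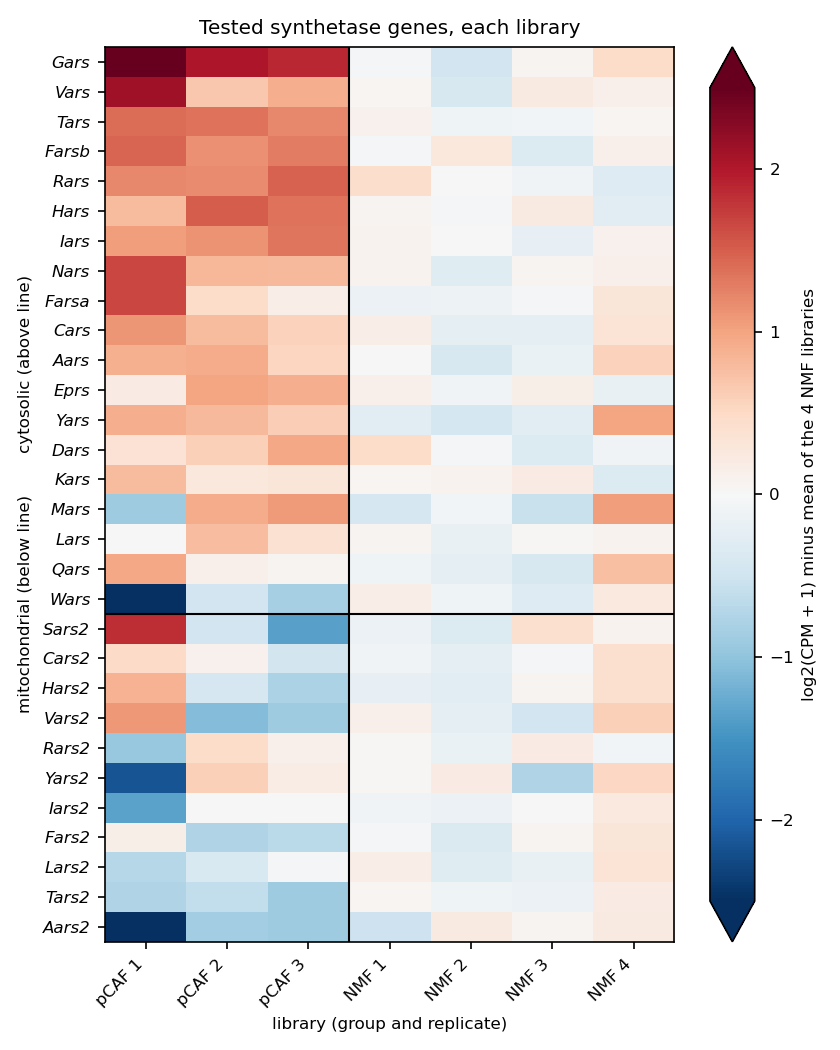
Tested synthetase genes in each library as log2(CPM + 1) minus the mean of the 4 NMF libraries; genes are ordered by fold change, cytosolic above the line and mitochondrial below it, and the colour scale ends at 2.5 in each direction. The upper left block is mostly red, Wars is blue in all 3 pCAF libraries, and pCAF 1 differs from pCAF 2 and 3 in many mitochondrial genes.

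Among the 30 tested members, the groups did not overlap in 14. The pCAF libraries were all higher in 11, all cytosolic, against 19.0% of all tested genes, and all lower in 3 (Wars, Aars2 and Tars2), against 21.4%. Those above were the 9 called genes with Eprs and Kars.

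Tars2, the mitochondrial threonyl-tRNA synthetase, stood at 23.3, 25.9 and 21.1 CPM in pCAF and at 41.3, 37.2, 36.3 and 46.1 CPM in NMF. All pCAF libraries lay below all NMF libraries, with a log2 fold change of -0.78 (SE 0.28) that did not pass (adjusted p 0.0570). It passed without pCAF replicate 1 (-0.78, adjusted p 0.0358), in DESeq2 (-0.79, adjusted p 0.0262), with library totals (-1.02, adjusted p 0.022) or upper quartile scaling (-0.82, adjusted p 0.0477), and when only genes averaging 10 CPM or more were tested (-0.79, adjusted p 0.0489). The last 3 of these called 18.1%, 14.8% and 14.7% of all genes lower. Aars2, the mitochondrial alanyl enzyme, had counts of 0, 6 and 6 in pCAF and 12, 20, 21 and 45 in NMF, all below in CPM, with a log2 fold change of -1.68 (SE 0.80, adjusted p 0.144).

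The other 9 tested mitochondrial genes overlapped between the groups. Cars2, Hars2, Rars2 and Vars2 had log2 fold changes between -0.02 and 0.06, Yars2 was at -0.14, and Iars2, Fars2 and Lars2 were at -0.33, -0.40 and -0.41, with adjusted p from 0.416 to 0.994. Sars2, the mitochondrial seryl enzyme, stood at 68.8, 13.0 and 6.65 CPM in pCAF and at 16.6, 14.4, 24.6 and 19.8 CPM in NMF. pCAF replicate 1 alone was above the NMF range and the other 2 were below it, so its log2 fold change went from 0.64 (adjusted p 0.506) to -0.95 (adjusted p 0.0854) without that library. Vars2 had the same split, at 31.1, 6.20 and 7.21 CPM against 15.5, 11.8, 9.86 and 22.0 CPM, and went from -0.01 to -1.16 (adjusted p 0.0656). Hars2 went from 0.03 to -0.67 (adjusted p 0.121). In Yars2 pCAF replicate 1 was the low library, at 3.88, 32.1 and 23.8 CPM against 21.2, 24.1, 12.0 and 30.3 CPM. Iars2 was also lowest there, at 15.0, 40.0 and 39.9 CPM against 37.1, 35.5, 39.4 and 46.7 CPM. The ends of Cars2, Fars2 and Iars2 overlap Naxd, Nrn1 and Rab3gap2 on the other strand.

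Too few counts for a test were found for 6 members. Sars, the cytosolic seryl-tRNA synthetase, had 0 counts in all 3 pCAF libraries and 2, 0, 2 and 0 counts in NMF. Its 4 counts compare with 745 to 3744 for each other cytosolic member in the same libraries, and whether counting or annotation lost its reads was not tested. Mitochondrial Ears2, Mars2, Nars2, Pars2 and Wars2 had 6, 5, 4, 10 and 2 counts in pCAF in all and 11, 18, 7, 66 and 11 in NMF, and 43 of the 66 for Pars2 came from NMF replicate 4. For the 5 mitochondrial genes a difference was not detectable at these counts.

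Ratios of counts between the 2 genes of an amino acid within a library do not depend on how libraries are scaled. In 11 such pairs both genes were tested. The ratio of cytosolic to mitochondrial counts was higher in every pCAF library than in every NMF library in 9 pairs. How often other gene pairs separate in this way was not computed. Among single tested genes 19.0% lay all higher in pCAF and 21.4% all lower. The ratios reuse the member counts given above, so they are not separate evidence. The mean log2 difference was above 0 in all 11. Pairs with an untested gene (those of Mars, Nars, Sars and Wars, and Eprs with Ears2 or Pars2) were left out. Wars, the only tested cytosolic gene with a negative log2 fold change, is therefore not among them. Tars to Tars2 was 8.29, 7.20 and 7.97 in pCAF and 1.897, 1.80, 1.91 and 1.63 in NMF. This was a difference of 2.10 on the log2 scale with little spread in either group. Cars, Farsa, Farsb, Iars, Lars, Rars and Vars also gave no overlap, with log2 differences from 0.78 (Lars) to 1.75 (Farsb). The Aars pair did not overlap either, but Aars2 was at 0 in pCAF replicate 1, where the 0.5 added to counts sets the ratio: the log2 difference was 3.03 with that library and 1.74 without it, a value computed after the data were seen. Farsa and Farsb share Fars2. Each of the 9 gave a two-sided exact permutation p of 0.0571, the smallest that 3 against 4 libraries allow, and 0.0698 after Benjamini-Hochberg adjustment over the 11 pairs, so none could pass 0.05.

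Hars to Hars2 and Yars to Yars2 overlapped. The histidyl ratio was 1.63, 6.81 and 7.96 in pCAF and 2.10, 2.04, 1.92 and 1.09 in NMF (exact permutation p 0.229, adjusted 0.251). The tyrosyl ratio was 23.1, 2.61 and 3.05 in pCAF and 1.84, 1.44, 3.26 and 3.11 in NMF (exact permutation p 0.343). pCAF replicate 1 was the outlying library in both, low in the histidyl ratio and high in the tyrosyl one. Without it the log2 differences were 2.08 in place of 1.36 and 0.31 in place of 1.29.

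**Figure D4:**
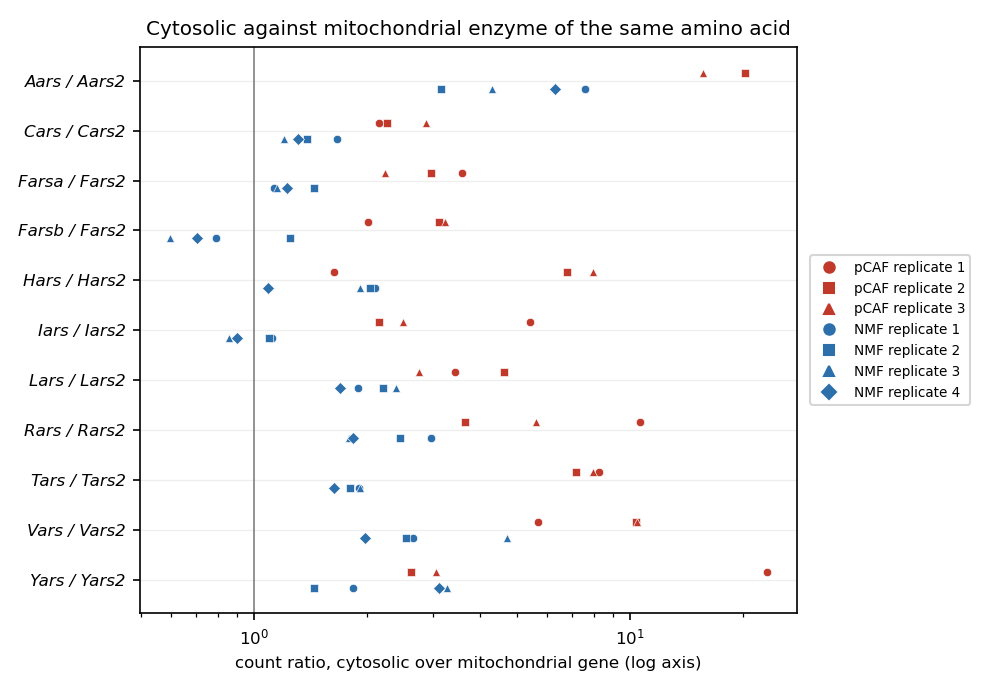
Ratio of cytosolic to mitochondrial counts (log axis) in each library for the 11 pairs of the same amino acid with both genes tested. Red symbols are pCAF and blue symbols NMF. The Aars pair has no point for pCAF replicate 1, where Aars2 had no count. Red lies right of blue in 9 pairs and overlaps in the Hars and Yars pairs.

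Other genes of aminoacyl-tRNA supply are given beside all tested genes, of which 14.3% were called higher and 14.2% lower. Of 3 subunits of the mitochondrial amidotransferase, which makes glutaminyl-tRNA where no mitochondrial Qars gene exists, Gatb was lower: 3.54 ± 2.13 CPM (SD, n = 3) in pCAF and 13.5 ± 5.68 CPM (SD, n = 4) in NMF, a log2 fold change of -1.91 (adjusted p 0.0385). The call was lost without pCAF replicate 2 or 3 or NMF replicate 1, 2 or 3 (adjusted p up to 0.117). Gatc was at -0.61 (adjusted p 0.263) and Qrsl1 at 0.49 (adjusted p 0.581). Among 15 tested genes of transfer RNA maturation and export 3 were higher: Ssb, which binds new polymerase III transcripts (1.74), Xpot, the transfer RNA exporter (1.73), and Trnt1, which adds the CCA end (1.11). In the same list Maf1, a repressor of RNA polymerase III, was lower (-1.63), and the median was -0.13. Xpot did not pass without pCAF replicate 1 or NMF replicate 1, 2 or 3 (adjusted p up to 0.0667), and Trnt1 passed in 2 of the 8 analyses that left libraries out (adjusted p up to 0.136).

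Of 6 cytosolic elongation factor genes Eif5a, the hypusine-carrying factor, was higher, beside 14.3% of all tested genes. Its log2 fold change was 1.36 (adjusted p 0.0334 in edgeR's test). It did not pass without pCAF replicate 1 (0.57, adjusted p 0.0681) or any single NMF library (adjusted p up to 0.0923). None of 8 tested mitochondrial translation factors passed, and their median was -0.08. Among 13 tested genes of eIF2 and its kinases, Eif2s2, the beta subunit, was higher, beside 14.3% of all tested genes. Its log2 fold change was 1.81 (adjusted p 0.0219 in edgeR's test). The call was lost without pCAF replicate 3 or NMF replicate 2 or 3 (adjusted p up to 0.106).

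In the amino acid stress list, 4 of 28 tested genes were higher and 2 lower, at a median log2 fold change of 0.35. The higher share equals the 14.3% of all tested genes, and the lower share is below their 14.2%. Higher were Mthfd2, a mitochondrial folate enzyme (3.19, adjusted p 0.00235), Psat1 of serine synthesis (2.23, 0.00188), the cationic amino acid transporter Slc7a1 (1.61, 0.00575) and the translation repressor Eif4ebp1 (1.15, 0.00972). Lower were the neutral amino acid transporter Slc1a5 (-1.43, 0.0078) and the lipoprotein receptor Vldlr (-2.20, 0.0177). Of the 28 tested genes 17 lay above 0 and 11 below. Atf4, the asparagine synthetase gene Asns and Ppp1r15a, chosen after their values were seen, did not pass in the main edgeR test. Their log2 fold changes were 0.70 (adjusted p 0.0651), 1.08 (adjusted p 0.0644) and -1.48 (adjusted p 0.0511). Atf4, Asns and Ppp1r15a passed in DESeq2, where the list had 6 higher and 3 lower (16.9% and 17.9% of all genes). Asns and Ppp1r15a also passed without pCAF replicate 1. Ppp1r15a was called lower with library totals, upper quartile scaling, no filter and the replicate block as well. The counts in this list were 9 higher and 4 lower of 30 without pCAF replicate 1 (18.3% and 19.8% of all genes), and 14 and 8 of 30 without both libraries that stood apart (25.9% and 26.9% of all genes).

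**Figure D5:**
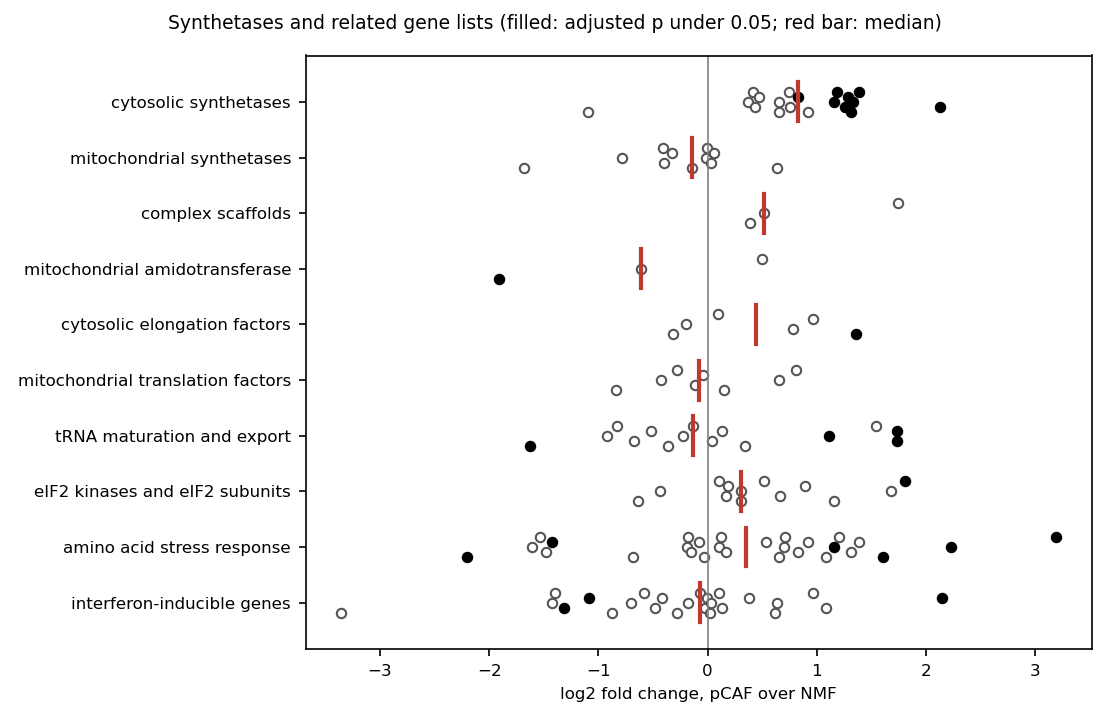
Log2 fold change of each tested gene in the synthetase sets and related lists; filled points have an adjusted p under 0.05 and red bars are medians. The cytosolic synthetases have 9 filled points and a median of 0.83, and the amino acid stress list has filled points on both sides of 0.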

How the data were processed

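Polyadenylated RNA of 3 pCAF and 4 NMF samples was sequenced from its 3' ends, per the labels' protocols. The authors deposited raw counts per gene symbol. The mm10 build, STAR 2.4.2a, bcl2fastq and HTSeq are named in the submitters' processing notes, with no roles. Annotation, strand, multi-mapping reads, molecular identifiers and filters are not given in the sources used here. Samples were grouped by title and source.

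The count test was edgeR 4.0.16 under R 4.3.3 (filterByExpr by group, TMM, robust quasi-likelihood F test, two-sided, Benjamini-Hochberg adjustment over the 10535 genes kept, threshold 0.05). CPM were computed here from the effective library sizes. SE is the fitted log2 fold change divided by the square root of F. The fit was tested on simulated counts. The members and lists were chosen with earlier results of these data known. Named are all members, the scaffold and amidotransferase genes, up to 6 genes of the smallest adjusted p in each other pathway list, and genes said to be chosen after their values were seen. A gene that this rule names is not reported here.

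Positions came from GENCODE M21. Overlaps of the last 1000.0 bp and copies of the last 300.0 bp (at least 80 bp at 95% identity, blastn 2.17.0) were listed. Promoters were those of RefSeq on GRCm38.p6, and 9 members (Cars, Hars, Hars2, Lars, Nars, Pars2, Rars, Vars and Wars) had no entry. Alternatives were other scalings, DESeq2 1.42.0, limma-voom (limma 3.58.1), other filters, thinning of each library to the smallest total, a replicate block and leaving out each library. Leaving out pCAF replicate 1 with NMF replicate 4 was chosen after seeing the data. No sign of pairing by replicate number was seen. Python 3.11.15 with pandas 2.3.3, scipy 1.17.1 and matplotlib 3.10.9 made the tables and plots.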

Additional observations from a re-analysis of the deposited data

Results flagged for a closer look

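Of 36 genes checked over the 4 NMF libraries, 2 had a library set far from the other 3, where chance gives about 1 in 20 groups. Nars in NMF replicate 2 was low at 74.7 CPM, against 96.8 to 101 CPM in the others. Yars in NMF replicate 4 was high at 94.1 CPM, against 34.6 to 39.1 CPM in the others. Nars kept its call without NMF replicate 2, and Yars passed without NMF replicate 4.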

How the results depend on the processing

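Farsb, Gars, Hars, Iars, Nars, Rars and Tars were called higher in all 17 alternatives, and no mitochondrial gene was called higher in any. Vars lost its call without NMF replicate 1 or 2, and Cars in 11 alternatives (adjusted p up to 0.142). Of the 21 tested members without a call, 11 never had one. Scaling by library totals moved the median of all tested genes to -0.26.

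Without pCAF replicate 1 and NMF replicate 4, a choice made after seeing the data, 15 members were higher, all cytosolic. In that setting 4 were lower, 1 cytosolic and 3 mitochondrial, where 25.9% of all genes were called higher and 26.9% lower. Members lower, 0 in the main analysis, numbered 1 with library totals, upper quartile scaling or a mean of at least 10 CPM (Tars2 each time) and 2 in DESeq2 (Tars2 and Wars, thus 1 mitochondrial and 1 cytosolic). Leaving out each library gave 7 to 11 members higher and 0 to 1 lower (mitochondrial 0 to 1), where 9.92% to 18.3% of all genes were higher and 9.60% to 19.8% lower. The cause was not tested.

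With the replicate block, 9 members were higher and 0 lower (9.28% and 9.71% of all genes); Cars was lost and Yars gained (log2 fold change 1.12, adjusted p 0.0355). Same-numbered libraries correlated at -0.09, 0.08 and -0.01 after removal of group means, which gave no sign of pairing. Whether same-numbered libraries shared a processing step was not tested.

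Some mitochondrial genes changed sign. Leaving out each library gave log2 fold changes from -0.19 to 0.29 (Cars2), -0.67 to 0.34 (Hars2), -0.53 to 0.0011 (Iars2), -0.33 to 0.31 (Rars2), -0.95 to 1.11 (Sars2), -1.16 to 0.36 (Vars2) and -0.65 to 0.34 (Yars2). Without pCAF replicate 1 and NMF replicate 4 together, Cars2 was at -0.033, Hars2 at -0.51, Iars2 at 0.088, Rars2 at 0.27, Sars2 at -0.93 and Yars2 at 0.55. With library totals Cars2 was at -0.19 and Hars2 at -0.25. Hars2 was at -0.034 with upper quartile scaling and -0.16 with limma-voom, and Sars2 at -0.030 with limma-voom. Thinning gave 0.015 (Rars2) and 0.018 (Vars2), and Vars2 was at 0.0088 with DESeq2 size factors and 0.014 in DESeq2. The cause was not tested. Total counts over the 7 libraries were 110.0 to 712 for tested mitochondrial genes and 745 to 3744 for cytosolic ones.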
